A study of Rattus norvegicus with 10 samples.

Results

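Cystic disease of the kidney or the liver is known to be tied to a small set of genes, and 9 of them were followed here in the renal cortex of PCK rats. The genes were *Pkhd1*, *Pkd1*, *Pkd2*, *Ganab*, *Prkcsh*, *Sec63*, *Dzip1l*, *Bicc1* and *Tsc1*, taken by symbol from the 32545 genes of the authors' expression table. Each symbol matched 1 row, so all 9 were found. The PCK rat carries a mutation of *Pkhd1* and is a model of autosomal recessive polycystic kidney disease (ARPKD). All 10 animals, 5 males and 5 females aged 12 to 14 weeks per the sample labels, belonged to this strain, named PCK/CrljCrl-Pkhd1pck/Crl, and received no treatment that the labels name. No rat without the mutation was sequenced, so the comparisons are between the sexes, between the genes and between the rats. The tissue is labelled kidney, and the study's methods describe snap-frozen cortex from littermates of a pair of litters. Those methods give a younger age than the labels. The litter of each rat was not used here.

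The proteins made from these genes meet in the primary cilium and in the endoplasmic reticulum. Polycystin-1 and polycystin-2, the products of *Pkd1* and *Pkd2*, form a receptor and channel complex on the cilium of tubule cells, and their loss causes the dominant disease. Fibrocystin, the product of *Pkhd1*, is a large membrane protein of the same cilium, and *Dzip1l* encodes a protein at the base of the cilium that is mutated in a rarer recessive form. *Ganab* and *Prkcsh* encode the catalytic and the regulatory subunit of glucosidase II, which trims sugars on newly made glycoproteins, and *Sec63* encodes a part of the machinery that moves proteins into the endoplasmic reticulum. Mutations of these last genes are known to cause cysts of the liver, and in the case of *Ganab* also of the kidney. *Bicc1* encodes an RNA-binding protein whose loss gives cystic kidneys in mice, and *Tsc1* encodes hamartin, which restrains mTOR signalling together with the product of *Tsc2*.

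The sequence just upstream of the transcription start is shown for *Pkhd1*, *Pkd2* and *Sec63*, as 1 gene each of the recessive kidney disease, the dominant kidney disease and the dominant liver disease. These were the 3 of the 9 genes whose 250 upstream bases held no annotated RefSeq gene. The bases are from RefSeq on build GRCr8, which is a different build from the one used for expression, and run 5′ to 3′ on the strand of the gene. They lie at chr9:30533835-30534084 on the minus strand for *Pkhd1*, at chr14:5585141-5585390 on the minus strand for *Pkd2* and at chr20:47827041-47827290 on the plus strand for *Sec63*. Capitals mark matches, on either strand, to GTTAAT (part of the site that hepatocyte nuclear factor 1 recognises), CCAAT or GGGCGG (the GC box).
Pkhd1: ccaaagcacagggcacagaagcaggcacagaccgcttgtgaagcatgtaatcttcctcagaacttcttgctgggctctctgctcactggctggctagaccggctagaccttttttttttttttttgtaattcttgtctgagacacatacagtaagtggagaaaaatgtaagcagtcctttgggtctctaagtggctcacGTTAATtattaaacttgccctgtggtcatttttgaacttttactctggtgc
Pkd2: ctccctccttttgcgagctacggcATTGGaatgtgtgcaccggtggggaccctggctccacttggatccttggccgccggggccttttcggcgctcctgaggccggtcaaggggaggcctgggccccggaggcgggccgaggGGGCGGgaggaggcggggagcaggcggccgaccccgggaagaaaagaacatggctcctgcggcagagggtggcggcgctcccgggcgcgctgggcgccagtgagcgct
Sec63: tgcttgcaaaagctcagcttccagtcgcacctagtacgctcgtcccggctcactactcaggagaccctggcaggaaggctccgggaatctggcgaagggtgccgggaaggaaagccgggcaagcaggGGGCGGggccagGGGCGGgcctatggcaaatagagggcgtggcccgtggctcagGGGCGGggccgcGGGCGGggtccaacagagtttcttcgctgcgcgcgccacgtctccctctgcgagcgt

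GTTAAT occurred once upstream of *Pkhd1*, where it began 51 bases before the transcription start, and in none of the other 8 windows of 250 bases. It occurred in 6.45% of 33469 RefSeq promoter windows of the same length. CCAAT occurred upstream of 4 genes (*Pkd1*, *Pkd2*, *Ganab* and *Bicc1*) against 34.0% of all windows, and GGGCGG upstream of 5 genes (those 4 and *Sec63*) against 30.5%. In the *Pkd1* window a CCAAT on the other strand overlapped a GC box. The *Pkhd1* window held 44.0% G and C, against 72.4% for *Pkd2* and 68.0% for *Sec63*. These are matches of letters and were not compared with binding data.

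Expression is given as FPKM, the fragments on a gene relative to its length and to a size of the library, as deposited by the authors. Levels of different genes are compared on this scale. A bias of a gene model that repeats in every library would not be seen in these comparisons. The FPKM could be turned back into whole reads, and 13912569 to 20285911 reads fell on genes in the males and 14963924 to 19556707 in the females. The library size that the FPKM imply is not this sum, being for example 17691443 against 19556707 reads in female 4 and 15435670 against 14387669 in male 1. Mitochondrial genes took 14.3% to 26.8% of these reads, with the highest share in female 2. *Eif2s3y*, a gene of the Y chromosome, had 880 to 1456 reads in the males and 1 to 7 in the females. Of 41 marker rows of kidney cell types, 38 had reads in every library, whereas *Pvalb*, a marker of the distal convoluted tubule, is listed at 0 in all 10 and *Slc14a2*, a urea transporter of the inner medulla, reached 2.24 FPKM at most. Each rat gave 1 library, and p-values measure the spread between these rats. They treat the rats as independent, although the rats came from a pair of litters, and an effect of litter was not tested.

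All 9 genes were expressed in every rat, from 233 reads on *Dzip1l* in its lowest library to 6129 reads on *Ganab* in its highest. The genes of the endoplasmic reticulum and *Bicc1* stood above the genes of the cilium, apart from *Pkd2*. *Prkcsh* had the highest mean level, 99.9 ± 9.28 FPKM (SD, n = 10), followed by *Ganab* at 75.4 ± 8.14 and *Bicc1* at 37.2 ± 4.77. *Sec63* stood at 22.3 ± 1.80 and *Pkd2* at 21.9 ± 2.43 FPKM. The other 4 lay close together, with *Pkhd1* at 5.95 ± 1.36, *Tsc1* at 5.82 ± 0.615, *Dzip1l* at 5.33 ± 0.672 and *Pkd1* at 4.93 ± 0.729 FPKM.

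**Figure D1:**
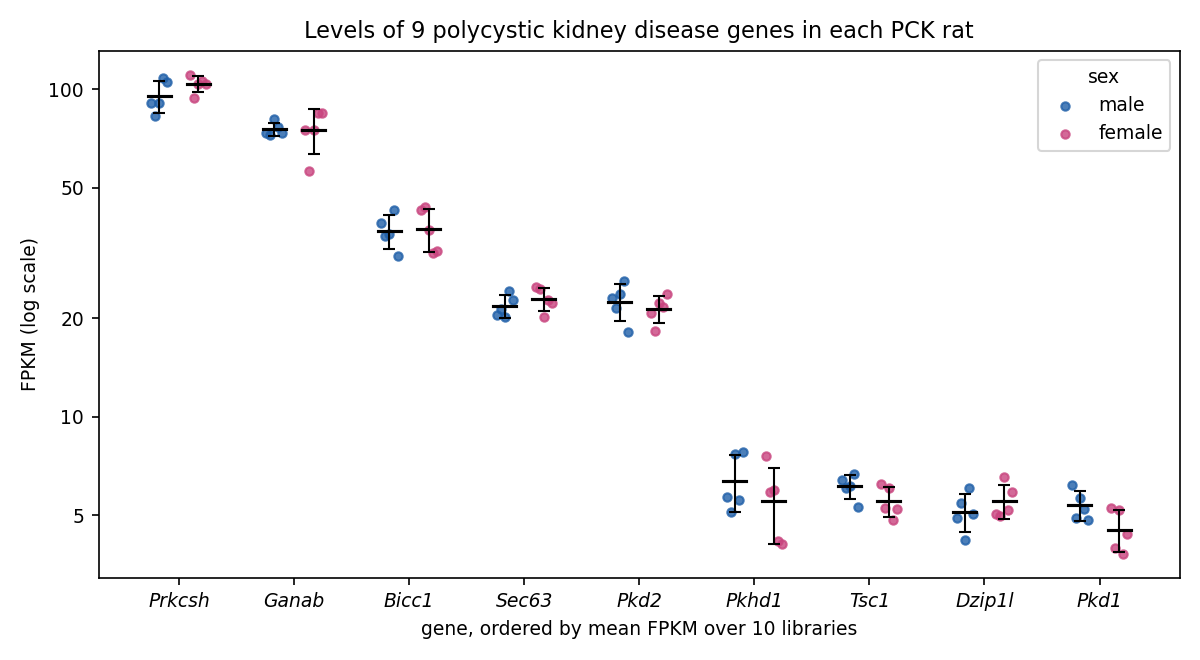
Expression of 9 polycystic kidney disease genes in the cortex of PCK rats (5 males, 5 females), in FPKM on a log axis, with genes ordered by their mean. Points are single rats, and black lines show the mean and SD of each sex. *Prkcsh* and *Ganab* lie highest, *Pkhd1*, *Tsc1*, *Dzip1l* and *Pkd1* lie between 3.81 and 7.81 FPKM, and the points of the males and the females overlap for every gene.

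Neighbours in this order were compared within each rat by an exact sign-flip permutation test of the log2 ratio, two-sided. Of the 8 neighbouring pairs, 4 kept the same order in 10 of 10 libraries (exact p = 0.00195 each, the smallest the design allows). These were *Prkcsh* over *Ganab*, *Ganab* over *Bicc1*, *Bicc1* over *Sec63* and *Pkd2* over *Pkhd1*. The level of *Sec63* was not separable from that of *Pkd2* (exact p = 0.656), nor that of *Pkhd1* from *Tsc1* (exact p = 0.953), *Tsc1* from *Dzip1l* (exact p = 0.109) or *Dzip1l* from *Pkd1* (exact p = 0.25). The gap of 3.75-fold between *Pkd2* and *Pkhd1* was the widest between neighbours.

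The 2 polycystin genes therefore differed in FPKM. Their gene models differ in length, 13813 bases for *Pkd1* and 4851 for *Pkd2*, and a bias between the models was not tested. *Pkd2* (chromosome 14, 6602004 to 6645257 on build Rnor_6.0) was at 23.0, 21.5, 23.8, 25.9 and 18.1 FPKM in males 1 to 5 and at 20.8, 18.3, 22.2, 21.6 and 23.8 FPKM in females 1 to 5. *Pkd1* (chromosome 10, 13915214 to 13962008) was at 6.18, 4.91, 5.62, 5.22 and 4.82 FPKM in the males and at 5.24, 3.98, 5.20, 3.81 and 4.37 FPKM in the females. *Pkd2* exceeded *Pkd1* 3.72-fold to 5.69-fold in all 10 rats. *Pkd1* was highest in males 1 and 3 and lowest in females 2 and 4, and the ranges of the sexes overlapped. *Pkd1* shares 62 bases with *Tsc2* on the opposite strand, and whether strand was used in counting is not stated.

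*Pkhd1* (chromosome 9, 26636334 to 26707571, minus strand), the gene mutated in these rats, varied most. Its level was 5.66, 5.13, 7.70, 5.56 and 7.81 FPKM in males 1 to 5 and 7.58, 5.87, 5.96, 4.16 and 4.09 FPKM in females 1 to 5. Males 3 and 5 and female 1 were high, and females 4 and 5 were low. The highest rat exceeded the lowest 1.91-fold, and 315 to 615 reads lay behind each value. Within a sex the SD of the log2 level was 0.33. This SD stood at percentile 74.2 among the 13363 genes averaging 1 FPKM or more, whereas the other 8 genes stood between percentile 10.4 (*Sec63*) and 41.1 (*Bicc1*). The authors' table gives *Pkhd1* a length of 4839 bases. The full fibrocystin transcript is known to be much longer, and which exons this model covers, the altered one included, was not analysed here.

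The nearest gene model on the same strand followed *Pkhd1* from rat to rat. AABR07067024.1 (ENSRNOG00000060699, chromosome 9, 26727162 to 26734763) lies 19590 bases away, has a length of 552 bases and drew 45 to 108 reads per rat. It was picked out after its values were seen. Over the 10 libraries, with log2 values centred on the mean of each sex, its Pearson r with *Pkhd1* was 0.92 and its Spearman rho was 0.92. Without females 1 and 5, the rats farthest from the median of *Pkhd1*, r was 0.88. It did not pass the test between the sexes (limma adjusted p = 0.937). Whether this model is a part of the *Pkhd1* transcript was not tested.

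**Figure D2:**
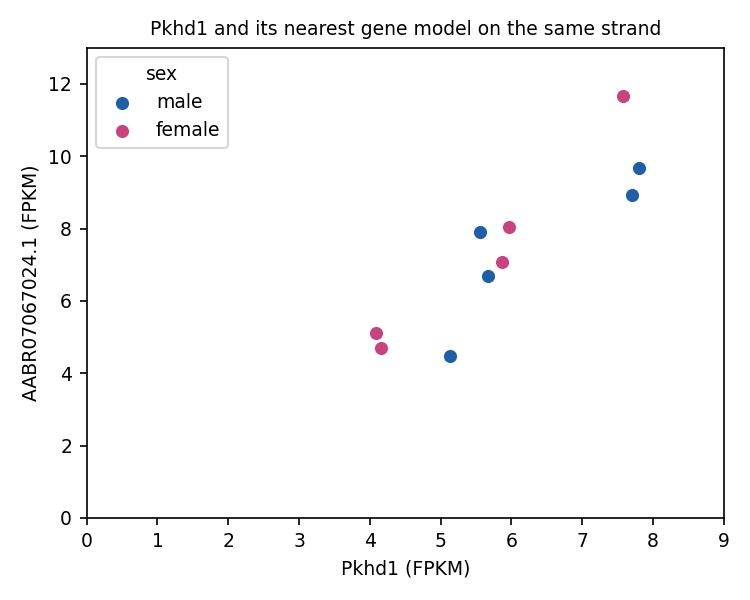
*Pkhd1* on the horizontal axis and the gene model AABR07067024.1 on the vertical axis, both in FPKM, with 1 point per rat and the sexes in different colours. Rats high in *Pkhd1* are high in the neighbouring model (r = 0.92 on log2 values centred on sex), and females 4 and 5 lie at the lower left.

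The subunits of glucosidase II were the most abundant of the 9. *Ganab* (chromosome 1, 225096598 to 225116378) was at 73.6, 72.4, 81.4, 76.9 and 73.4 FPKM in males 1 to 5 and at 75.3, 56.3, 75.2, 84.9 and 84.6 FPKM in females 1 to 5. *Prkcsh* (chromosome 8, 23014956 to 23026503) was at 91.0, 83.1, 90.7, 108.5 and 105.3 FPKM in the males and at 110.9, 94.4, 104.1, 106.2 and 104.2 FPKM in the females. Female 2 was the lowest of all rats for *Ganab* but not for *Prkcsh*. The ratio of *Prkcsh* to *Ganab* was 1.27 ± 0.148 (SD, n = 5) in males and 1.40 ± 0.183 in females, and it was highest, at 1.68, in female 2. *Sec63* (chromosome 20, 47494270 to 47563222) varied least, between 20.1 and 24.9 FPKM with a coefficient of variation of 8.08%.

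Among the other genes, *Bicc1* (chromosome 20, 18780605 to 18940408) was at 39.0, 35.6, 36.2, 42.7 and 31.1 FPKM in males 1 to 5 and at 42.8, 43.7, 37.1, 31.6 and 32.1 FPKM in females 1 to 5. *Tsc1* (chromosome 3, 7237192 to 7265145) was at 6.42, 6.05, 6.13, 6.70 and 5.28 FPKM in the males and at 6.20, 5.25, 6.06, 4.85 and 5.22 FPKM in the females. For both genes male 5 and females 4 and 5 were low, and female 2 was high for *Bicc1* but low for *Tsc1*. *Dzip1l* (chromosome 8, 107875991 to 107916294) ranged from 4.18 to 6.05 FPKM in males and from 4.98 to 6.54 in females.

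None of the 9 genes differed between males and females beyond the spread between rats. In females 5 were lower and 4 were higher, and the males' and females' ranges overlapped for all 9. limma on log2(FPKM + 0.1) over 17631 genes averaging 0.1 FPKM or more called 0 of the 9 at the 0.05 threshold on the Benjamini-Hochberg adjusted p, while it called 2.40% of all genes tested. With a further threshold of 1 on the size of the log2 fold change, it called 0 of the 9 and 1.32% of all genes. At an unadjusted p of at most 0.05 it again called 0 of the 9, against 15.7% of all genes, and the ranges of the sexes were separate for 5.10% of all genes. The median log2 fold change of the 9 genes was −0.02, and that of all genes tested was −0.01. The voom test on the recovered reads also called none of the 9.

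The gene nearest to a difference was *Pkd1*, at 5.35 ± 0.558 FPKM (SD, n = 5) in males and 4.52 ± 0.670 in females. Its log2 fold change of females over males was −0.25 ± 0.12 (SE; limma adjusted p = 0.365), and an exact permutation test of the means, two-sided, gave p = 0.0714. Without female 1 the exact permutation p was 0.0476. *Tsc1* was at 6.12 ± 0.531 FPKM in males and 5.52 ± 0.586 in females (exact permutation p = 0.135). *Pkhd1* was at 6.37 ± 1.28 and 5.53 ± 1.45 FPKM (exact permutation p = 0.373), a fold of 0.860 with a 95% interval of 0.643 to 1.15. Leaving out 1 rat moved its difference of females minus males from −0.840 FPKM to between −1.35 and −0.480.

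*Prkcsh* was at 95.7 ± 10.7 FPKM in males and 104.0 ± 6.02 in females (exact permutation p = 0.183), a fold of 1.09 with a 95% interval of 0.951 to 1.25, and its difference of 8.23 FPKM ran from 5.08 to 11.4 when 1 rat was left out. *Ganab*, its partner, was at 75.5 ± 3.69 and 75.3 ± 11.6 FPKM (exact permutation p = 0.992), and without female 2 the females' mean exceeded the males' by 4.46 FPKM (exact permutation p = 0.183). The means of *Bicc1* were 36.9 ± 4.31 and 37.4 ± 5.70 FPKM, and the sign of this small difference turned with the scaling. Over the 9 genes the limma 95% intervals reached no lower than a fold of 0.643 and no higher than 1.295, so that a difference as large as 2-fold lies outside each. In bulk tissue, fewer cells of a type and less RNA per cell cannot be told apart.

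**Figure D3:**
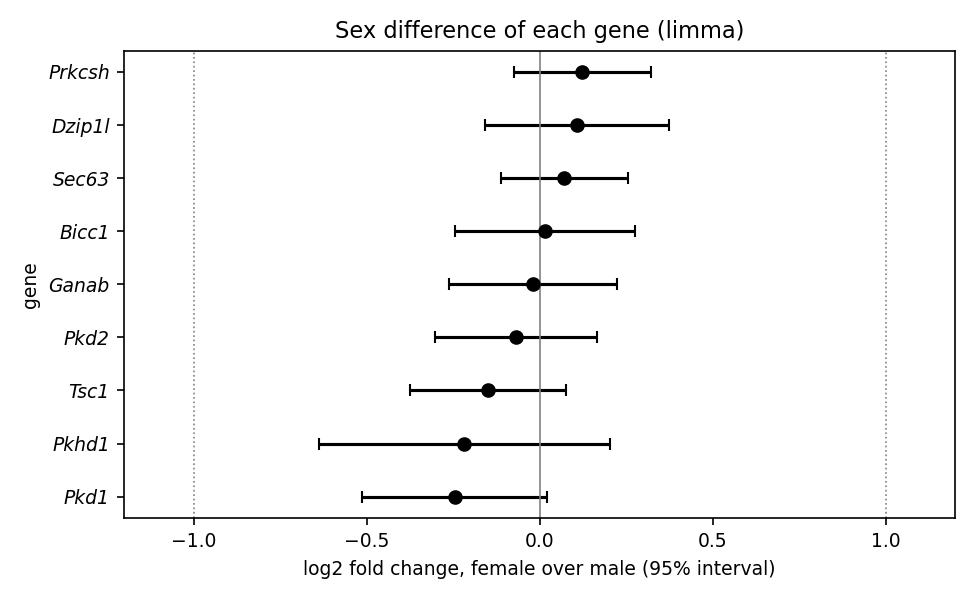
Log2 fold change of females over males for each gene (points) with its 95% interval from limma (bars), n = 5 per sex. The solid line marks no difference and the dotted lines mark a log2 fold change of 1 in either direction. Every interval crosses 0, and that of *Pkhd1* is the widest.

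The rats were next compared for genes that went up and down together. Log2 values were centred on the mean of each sex, Pearson r was taken over the 10 libraries for all 36 pairs of the 9 genes, and exact permutation tests shuffled rats within a sex. The genes did not move as 1 group. The median r was 0.14, the range was −0.58 (*Ganab* and *Bicc1*) to 0.82 (*Pkd1* and *Tsc1*), and r was above 0 for 24 pairs. In 2 of the 36 pairs r was at least 0.7 in size, which 9.89% of all pairs among genes averaging 1 FPKM or more also reached. The share of pairs at this size among the 9 genes was thus not above that among all genes.

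**Figure D4:**
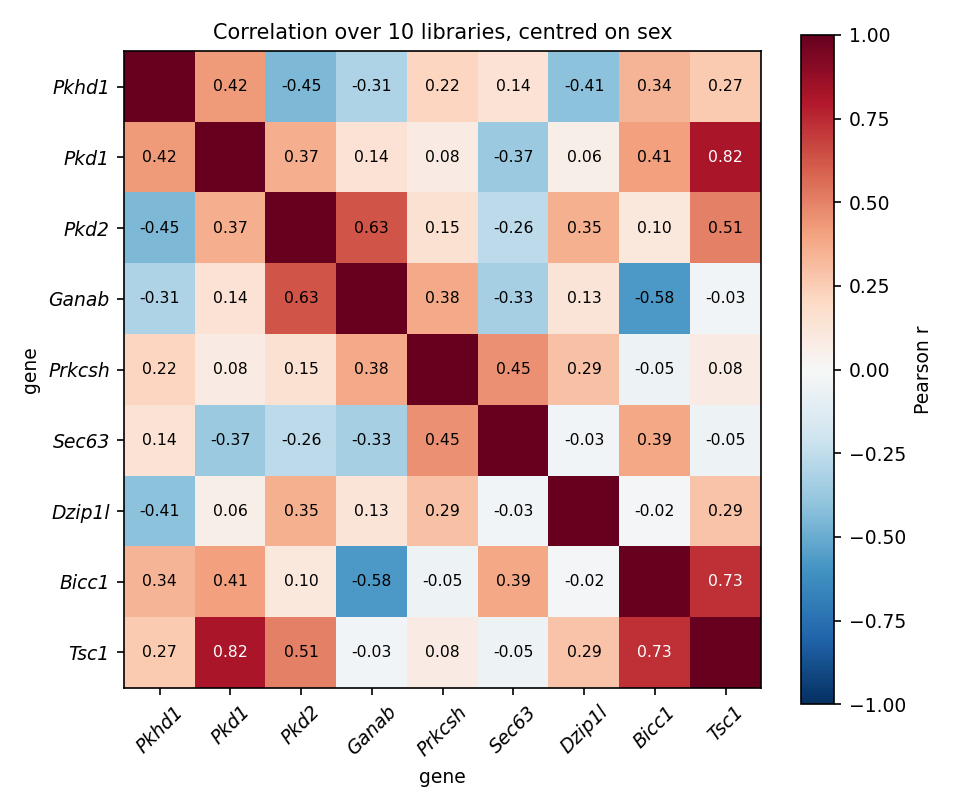
Pearson r between each pair of the 9 genes over 10 libraries, on log2 values centred on the mean of each sex, with red above 0 and blue below. The darkest cells off the diagonal are *Pkd1* with *Tsc1* (0.82) and *Bicc1* with *Tsc1* (0.73), and *Pkhd1* has an r of −0.45 with *Pkd2*.

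*Tsc1* was a member of both pairs at 0.7 or more. *Pkd1* and *Tsc1* had r = 0.82 (exact permutation p = 0.0159) and rho = 0.88 (exact permutation p = 0.00625). Without females 1 and 3, the rats farthest from the median of *Pkd1*, r was 0.59 (exact permutation p = 0.206). Leaving out extreme rats narrows the range of *Pkd1*, which can by itself lower r, so dependence on those rats cannot be read from it. Leaving out 1 rat gave r from 0.76 to 0.91, with an exact permutation p of 0.0503 at the highest. Within the sexes r was 0.57 in males and 0.97 in females.

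*Bicc1* and *Tsc1* had r = 0.73 (exact permutation p = 0.0375) and rho = 0.68 (exact permutation p = 0.0574). Female 2 lay off the line, and without this rat r was 0.95. The exact p was above 0.05 for 7 of the 10 ways to leave out 1 rat, with the lowest r, 0.64, without male 5 (exact permutation p = 0.166), and also without centring on sex and with quantile normalization. *Pkd2* and *Ganab* had r = 0.63 (exact permutation p = 0.0175) and rho = 0.68 (exact permutation p = 0.0308). Without female 2, the rat with the highest mitochondrial share, r was 0.47 (exact permutation p = 0.175), and without female 2 and male 5 it was 0.53 (exact permutation p = 0.196). The p was also above 0.05 with scaling by non-mitochondrial reads (r = 0.43, permutation p = 0.148) and without centring on sex (r = 0.63, permutation p = 0.0514). These were the 3 pairs of 36 with an exact p of at most 0.05, before any adjustment for the number of pairs. The share of all gene pairs at this p was not computed, so the count is not read as an excess.

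**Figure D5:**
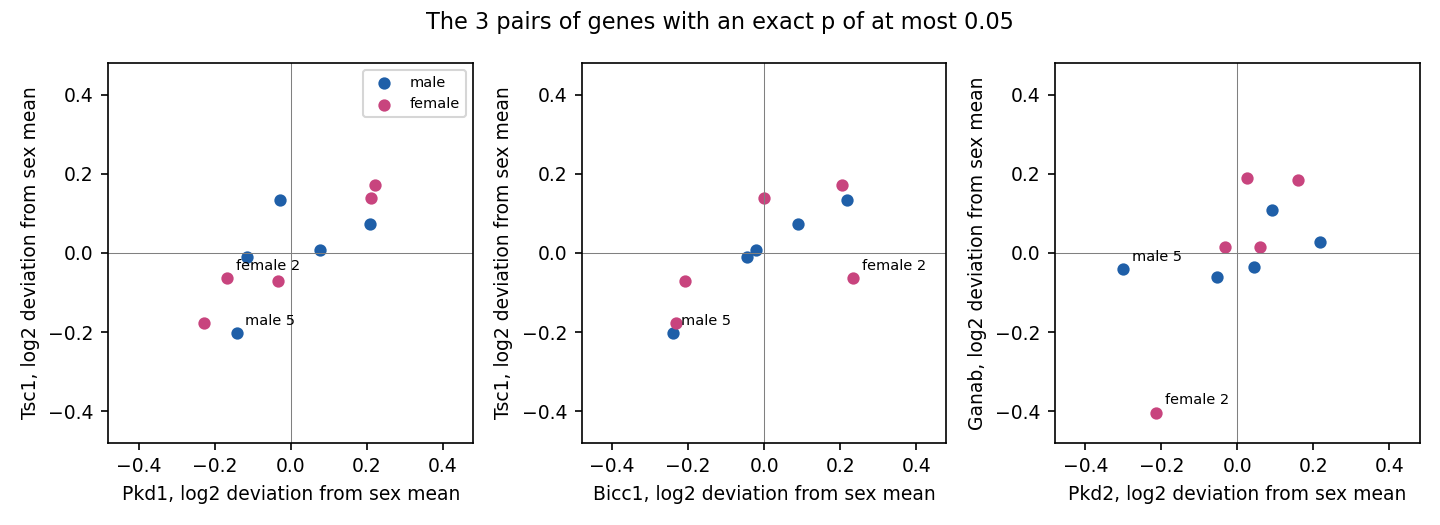
Log2 deviation from the sex mean for the 3 pairs with the smallest exact p, 1 point per rat, with *Pkd1* against *Tsc1*, *Bicc1* against *Tsc1* and *Pkd2* against *Ganab*. Female 2 lies off the trend of *Bicc1* and *Tsc1* and at the lower left of *Pkd2* and *Ganab*.

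Genes whose products act together were not the most alike under the deposited scaling, and the size of their r moved with the scaling and with single rats. The polycystin genes *Pkd1* and *Pkd2* had r = 0.37 (exact permutation p = 0.299), which ran from 0.22 to 0.46 when 1 rat was left out and was 0.57 with quantile normalization. *Ganab* and *Prkcsh*, the subunits of 1 enzyme, had r = 0.38 (exact permutation p = 0.148), and without female 2 r was 0.01. *Pkhd1* had r = 0.42 with *Pkd1* (exact permutation p = 0.281) and −0.45 with *Pkd2* (exact permutation p = 0.208). The first ran from 0.20 (without female 1) to 0.61 (without male 5) when 1 rat was left out. It was 0.18 with quantile normalization and 0.60 with scaling by non-mitochondrial reads. The second ran from −0.57 to −0.28 (without male 5) when 1 rat was left out, and was −0.22 with scaling by non-mitochondrial reads.

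Among 11836 named genes averaging 1 FPKM or more, those most like each disease gene over the 10 libraries were found by the same r. As the highest of many values, these carry no test. For *Pkhd1* they were *P3h4* (r = 0.95), *Ephb2*, which encodes an ephrin receptor (0.95), and *Scai* (0.94). For *Pkd1* they were *Man1c1*, a mannosidase gene of the Golgi (0.93), *Unc13a* (0.93) and *Plcd3*, a phospholipase C gene (0.92). For *Pkd2* they were *Tbc1d2* (0.96), *Anks6* (0.96) and *Rnf217* (0.95). *Anks6* encodes a ciliary protein and is itself a cystic kidney gene.

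For *Bicc1* the gene most alike was *Glis3* (r = 0.97), which encodes a zinc finger factor whose loss is known to give cystic kidneys. The others were *Kptn* for *Ganab* (0.98), *Otud4* for *Tsc1* (0.96), *Actr8* for *Sec63* (0.96), *Hdgfrp2* for *Prkcsh* (0.94) and *Banp* for *Dzip1l* (0.89). An r of at least 0.7 was reached with *Ganab* by 13.7% of the genes searched and with *Dzip1l* by 0.473%. *Pkhd1* lay between, at 3.53%.

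Genes of the same pathways were read from 4 lists. Of 13 genes for folding and translocation in the endoplasmic reticulum, all were tested and 0 passed the limma adjusted p, although 12 had a mean log2 fold change above 0 (median 0.18, against −0.01 over all genes). Without female 2, the rat with the highest mitochondrial share, the median of this list was 0.11. *Hspa5*, the chaperone BiP of the endoplasmic reticulum, was at 165 to 178 FPKM in males and at 188 to 339 in females (log2 fold change 0.47, limma adjusted p = 0.126). *Dnajb11*, a co-chaperone of BiP that is also a polycystic kidney disease gene, was at 44.7 to 49.6 FPKM in males and at 50.9 to 56.2 in females (log2 fold change 0.20, limma adjusted p = 0.159). In both the females' range lay wholly above the males', which held for only these 2 of the 13, while ranges were separate for 5.10% of all genes tested. *Dnajb11* is named for this after its values were seen.

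Of 14 other cystic kidney genes, 0 passed the limma adjusted p, and the median log2 fold change was −0.03. *Muc1*, which encodes a mucin of tubule surfaces and is mutated in a tubulointerstitial kidney disease, came nearest at 15.5 ± 3.06 FPKM in males and 22.3 ± 3.62 in females (limma adjusted p = 0.0922). Of 9 genes of the TSC complex and mTOR signalling, 0 passed (median log2 fold change −0.04), with *Deptor*, an mTOR inhibitor, nearest (log2 fold change 0.28, limma adjusted p = 0.180). Of 7 paralogs of the polycystins and fibrocystin, 3 had a level high enough to be tested and 0 passed, the nearest being *Pkd1l3* (limma adjusted p = 0.931). Over the 4 lists, 3, 1, 2 and 0 genes had an unadjusted limma p of at most 0.05, against 15.7% of all genes tested.

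The 9 genes were also set beside sums of marker genes of kidney cell types. These are sums of FPKM, so the most abundant marker of a list weighs most. *Slc34a1* took 824 to 1658 FPKM of the proximal tubule sum, and *Umod* 877 to 1503 FPKM of the thick ascending limb sum. The summed FPKM of 6 proximal tubule markers ranged from 1262 to 2491 in males and from 1283 to 2601 in females, and its r was 0.74 with *Pkd2* (exact permutation p = 0.0252) and 0.72 with *Ganab* (exact permutation p = 0.0151). Without female 2 and male 5 the first was 0.12 and the second 0.66. The sum of 4 inner medulla rows was 2.41 to 3.91 FPKM in males and 3.22 to 9.70 in females, highest in female 2, and its r with *Ganab* was −0.89 over all rats and −0.44 without female 2.

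Sums over 2 of the 10 marker lists separated the sexes, and no background share for such sums was computed. The sum of 4 fibroblast markers was 230 to 313 FPKM in males and 68.5 to 224 in females, with *Col3a1*, a fibrillar collagen gene, lower in females (log2 fold change −1.14, limma adjusted p = 0.0477). It was 1 of 3 marker rows of 41 called between the sexes, while 2.40% of all genes tested were called. The others were higher in females, *Cubn* of the proximal tubule (log2 fold change 0.72, limma adjusted p = 0.0467) and *Avpr2* of the principal cell (log2 fold change 0.44, limma adjusted p = 0.0469). Of the other proximal tubule markers none was called, with *Slc22a6* (log2 fold change −0.53) and *Slc34a1* (−0.03) below 0. *Slc5a2* (0.34), *Lrp2* (0.20) and *Slc5a12* (0.16) were above 0. The sum of 4 intercalated cell markers was 104 to 171 FPKM in males and 176 to 276 in females, with 0 of the 4 called.

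The sum of 4 macrophage markers was 83.5 to 167 FPKM in males and 39.8 to 96.3 in females, and its r with *Pkhd1* was 0.71 (exact permutation p = 0.0394, rho = 0.64), or 0.52 without male 5 and female 4. The sum of 5 principal cell markers was 290 to 471 FPKM in males and 335 to 531 in females, and its r with *Sec63* was −0.81 (exact permutation p = 0.00854), or −0.85 without male 1 and female 1. *Prkcsh* had r = 0.62 with 3 thick ascending limb markers, −0.68 with 4 intercalated cell markers and −0.58 with 4 endothelial markers. Leaving out the 2 rats farthest from the median of each marker sum gave 0.54, −0.19 and −0.45 in the same order. The mitochondrial share had r = −0.61 with *Pkd2*, and −0.30 without females 2 and 5. These were the 9 of 99 relations, of 10 marker lists and the mitochondrial share with the 9 genes, that had an exact p of at most 0.05, before any adjustment. Among all genes averaging 1 FPKM or more, 11.7% of the same relations did so, so the share for the 9 genes was not above the background. The relations were set beside the genes after the values were seen, and their part in the correlations and in the sex comparison was not tested.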

How the data were processed

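RNA-seq of the renal cortex of PCK rats was analysed, with 1 library from each of 5 males and 5 females, grouped by the sex in the labels. The authors deposited FPKM per gene, made from poly(A) libraries mapped with HISAT2 to Ensembl Rnor_6.0. The submitters' processing notes name HISAT2 2.0.5, StringTie 1.3.3b, featureCounts 1.5.0-p3 and fastp, and the use of strand in counting is not given in the sources used here. The authors' own tests used counts, which were not analysed here.

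FPKM multiplied by gene length gave whole reads for 100% of values, within 0.01 of a read. The reads carry no molecular identifiers and may repeat a molecule, so totals and limits from counts cover counting error only. limma (lmFit and eBayes with trend, version 3.58.1, R 4.3.3) was fitted to log2(FPKM + 0.1) of genes averaging 0.1 FPKM or more, with Benjamini-Hochberg adjustment over all of them. A fold change on this scale understates the change of low genes. Single genes had exact permutation tests in Python 3.11.15 (scipy 1.17.1, numpy 2.4.6, pandas 2.3.3). The fits were tested on simulated data. Alternatives were other pseudocounts (1 and 0.01), filters, scalings, eBayes without trend, limma-voom on the recovered reads, a replicate block and leaving out each library.

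The 9 genes, the related lists and the marker lists were chosen with earlier results of these data known. Genes named are the 9, the 3 genes most like each of *Pkhd1*, *Pkd1* and *Pkd2* and the 1 most like each other gene among genes with a symbol, the gene with the smallest p and any called gene of each related list, and the markers needed to check the tissue. *Dnajb11*, AABR07067024.1, the called markers and the markers named beside them or in the sums fall outside this rule and were named after their values were seen. Promoter bases are from RefSeq (build GRCr8), where all 9 genes were matched by symbol.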

Additional observations from a re-analysis of the deposited data

How the results depend on the processing

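None of the 9 genes passed the limma adjusted p under any of 20 alternative fits, of which the lowest was 0.271 (*Pkd1* without female 1). Of 180 alternative values of the sex differences, 173 kept their direction. Those that turned were *Bicc1* (log2 −0.033 with quantile normalization, −0.010 with scaling by non-mitochondrial reads, −0.044 to 0.073 leaving out 1 rat) and *Ganab* (−0.067 to 0.081 leaving out 1 rat). In FPKM the female minus male difference ran from −2.70 to 4.46 for *Ganab*, −1.02 to 1.999 for *Bicc1*, −2.20 to −0.238 for *Pkd2*, 0.625 to 1.80 for *Sec63*, 0.142 to 0.625 for *Dzip1l* and −1.01 to −0.626 for *Pkd1* when each rat was left out, with *Pkd1* past 0.05 only without female 1 (exact permutation p = 0.0476). When 1 rat was left out, the number of all genes called at the adjusted p ran from 259 (without female 5) to 543, with 268 without male 3 and 275 without male 2. With a pseudocount of 1, 137 genes passed both thresholds. One gene each of the other cystic kidney genes (without male 1) and of the mTOR list (without female 1) was called when 1 rat was left out, so these counts ran from 0 to 1. The median of the paralog list had no value under a filter at a mean of 1 FPKM.

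With the replicate number as a block, 231 genes were called in place of 424, and still 0 of the 9. The numbers did not pair the rats: the deviations of same-numbered rats correlated at −0.16 to 0.16, 1 of 5 pairs was over 0.1, and 1 of 5 males was closest to its own number.

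*Pkd1* and *Tsc1* had r = 0.76 to 0.91 leaving out 1 rat (exact permutation p = 0.0503 without female 4) and 0.59 leaving out 2. *Pkd2* and *Ganab* had r = 0.47 to 0.80 leaving out 1 rat, 0.63 without centring on sex, 0.43 with scaling by non-mitochondrial reads and 0.53 leaving out 2. *Bicc1* and *Tsc1* had r = 0.64 to 0.95 leaving out 1 rat, 0.61 without centring, 0.68 as rho and 0.53 with quantile normalization. The pairs at 0.7 or more numbered 1 without centring, 1 by rho and 1 (without female 4) to 4 (without male 5) leaving out 1 rat. In levels, the log2 ratio of *Sec63* to *Pkd2* was −0.037 in males and −0.0097 to 0.063 leaving out 1 rat, that of *Pkhd1* to *Tsc1* was −0.029 in females and −0.056 to 0.045 leaving out 1 rat, and that of *Dzip1l* to *Pkd1* was −0.066 in males. The cause of these changes was not tested. Scaling by all reads on genes, added after seeing the data, gave r = 0.91, 0.6999 and 0.80 for these pairs in the order above, and 2 pairs at 0.7 or more. It moved *Pkhd1* and *Pkd2* from −0.45 to −0.086, *Pkd1* and *Pkd2* from 0.37 to 0.60, *Pkhd1* and *Pkd1* from 0.42 to 0.59 and *Ganab* and *Prkcsh* from 0.38 to 0.56.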
